A study of Homo sapiens with 24 samples.

Results

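The comparison asked how far the response to interferon gamma (IFNγ) differed between 2 clear cell renal cell carcinoma lines. It used the 12 control siRNA libraries of the 24 in the series, 3 in each of 4 groups: A-498 Control, A-498 Control-IFNg, 786-0 Control and 786-0 Control-IFNg. A498 and 786-O are established human kidney tumor lines from ATCC, written A-498 and 786-0 in the sample labels. All 4 groups carried a non-targeting siRNA at 20 nM for 24 hours, and the IFNγ groups then received the cytokine at 50 ng/mL for a further 24 hours. The remaining 12 libraries had the same design with PD-L1 siRNA and were used only as a second, separate set of samples. Their labels also give a PD-L1 knockout genotype, whereas the methods describe transient silencing with siRNA. The quantity of interest was the log2 IFNγ effect in 786-0 minus the log2 IFNγ effect in A-498, called the line difference below. A positive line difference is an effect that is more positive in 786-0, and a negative one an effect that is more positive in A-498.

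Several facts about the samples limit every value that follows. Each line was sequenced on its own Illumina instrument, a NovaSeq for A498 and a NextSeq for 786-O, so line and instrument cannot be told apart. The replicates are not described as separate cultures, and the p-values then measure only the spread between these libraries, which may be technical. In addition, the tables supplied with the study carry the 2 line names the other way round from the sample labels, whereas its text on QPRT and AFMID uses them as the labels do. Which assignment is right was not settled, and each direction given here refers to the lines as the samples are labelled. The protocols also describe luciferase-expressing versions of both lines without saying which cells gave the RNA. PAX8, a transcription factor of kidney epithelium, lay between 163 and 247 CPM (read counts scaled to a common library size with TMM factors) in all 12 libraries, and CD68, a macrophage marker, did not exceed 1.62 CPM in any of them.

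Of the 39321 rows of the count table, 29051 were kept, because rows at 0 in all 12 libraries of either line cannot give a line difference. The loss was uneven: 4670 rows were at 0 in every library labelled 786-0, and 1475 of them held over 1000 counts in A-498. Among the rows lost in this way are several at the head of the pathway, among them JAK2, IFNGR1 and IFNGR2, together with STAT3, NFKBIA, TAP2, TAPBP, PSMB8, OAS1, OAS2, APOL1, CDKN1A and MYC. These genes were not compared here. A 0 in that many abundant genes is a property of the table and says nothing of their expression in 786-0.

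IFNγ binds a receptor that activates the kinases JAK1 and JAK2. The signal acts on GAS elements in the promoters of the first target genes, IRF1 among them, and IRF1 with other interferon regulatory factors then acts through ISRE elements on a second layer of genes. CIITA, itself induced, switches on the HLA class II genes, and NLRC5 does so for class I. In tumor cells the program is known for antigen presentation, for the chemokines that attract T cells and for PD-L1, the ligand that inhibits them.

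The promoters of 5 genes that recur in the results are shown as the bases in front of the annotated start, because both kinds of element occur among them. The sequences are from RefSeq on GRCh38.p14, 250 bases each, written 5′ to 3′ on the strand of the gene. Capitals mark matches to a GAS pattern (TTC and GAA with 3 bases between them) or an ISRE pattern (TTTC and TTTC with 2 bases between them), searched on both strands. The 3 CXCR3 ligand genes lie side by side on chromosome 4, with CXCL9 at chr4:76007510-76007759 (minus strand), CXCL10 at chr4:76023498-76023747 (minus strand) and CXCL11 at chr4:76036071-76036320 (minus strand). CD274, which encodes PD-L1, is at chr9:5450292-5450541 (plus strand) and IRF1 at chr5:132490774-132491023 (minus strand).
CXCL9: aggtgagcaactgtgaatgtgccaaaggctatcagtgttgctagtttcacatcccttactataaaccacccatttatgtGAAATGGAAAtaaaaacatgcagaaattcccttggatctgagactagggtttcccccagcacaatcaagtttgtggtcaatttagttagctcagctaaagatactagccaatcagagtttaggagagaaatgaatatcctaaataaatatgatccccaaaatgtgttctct
CXCL10: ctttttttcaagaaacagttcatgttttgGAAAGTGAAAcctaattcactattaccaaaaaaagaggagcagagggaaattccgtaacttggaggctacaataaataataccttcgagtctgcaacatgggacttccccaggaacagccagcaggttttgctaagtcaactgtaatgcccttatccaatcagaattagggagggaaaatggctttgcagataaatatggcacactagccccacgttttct
CXCL11: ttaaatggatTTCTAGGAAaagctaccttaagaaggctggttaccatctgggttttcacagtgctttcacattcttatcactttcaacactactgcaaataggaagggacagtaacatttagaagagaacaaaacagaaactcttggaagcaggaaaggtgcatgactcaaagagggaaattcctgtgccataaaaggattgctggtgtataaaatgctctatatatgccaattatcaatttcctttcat
CD274: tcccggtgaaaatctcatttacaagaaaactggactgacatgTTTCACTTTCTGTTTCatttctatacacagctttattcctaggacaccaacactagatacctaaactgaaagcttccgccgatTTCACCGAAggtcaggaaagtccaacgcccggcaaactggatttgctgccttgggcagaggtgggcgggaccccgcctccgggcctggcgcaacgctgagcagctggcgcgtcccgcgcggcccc
IRF1: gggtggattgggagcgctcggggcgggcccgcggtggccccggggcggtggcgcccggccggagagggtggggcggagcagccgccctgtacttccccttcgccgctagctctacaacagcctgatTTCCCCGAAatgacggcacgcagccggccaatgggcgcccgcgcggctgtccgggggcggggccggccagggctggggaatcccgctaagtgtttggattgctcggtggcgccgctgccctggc

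CXCL9 and CXCL10 each held 1 ISRE match and no GAS match in this window, CXCL11 and IRF1 held 1 GAS match and no ISRE match, and CD274 held 1 GAS match and 2 overlapping ISRE matches. A match is a string of letters and not a tested binding site. Over classes of genes, the window ran from 250 bases before the start to 50 after it, and an ISRE match was found in 3.0% of the 11850 promoters that could be paired with a tested gene. It was found in 10.0% of 461 genes that rose in both lines with no line difference, in 40 (20.1%) of 199 that rose in both and more in A-498, and in 6 (14.3%) of 42 that rose in both and more in 786-0. In genes that rose in A-498 alone and had a line difference, the share was 15 of 885 (1.7%), and for the same class in 786-0 it was 16 of 211 (7.6%). For GAS matches the corresponding shares were 6.4% of all tested, 9.8%, 13.1%, 2.4%, 8.6% and 6.2%. A pattern of NFκB sites, GGG and CC with 5 bases between them, stood in 71.2% of tested promoters and in 61.9% to 74.2% of these classes.

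A line difference was called for 5056 of 20954 genes tested, which is 24.1%, where a call needed a Benjamini-Hochberg adjusted p under 0.05 in edgeR's quasi-likelihood test and a line difference beyond 0.5 in size. The difference favoured 786-0 in 2611 genes (12.5%) and A-498 in 2445 (11.7%), and 3711 of all calls were protein-coding. DESeq2 turned the order of the 2 counts, with 2255 toward 786-0 and 2435 toward A-498. The median over all genes tested was 0.03. In bulk RNA, fewer cells with a transcript and less of it per cell cannot be told apart. IFNγ raised 3398 genes and lowered 3461 in A-498, and raised 2139 and lowered 1687 in 786-0. Of these, 1149 rose in both lines and 718 fell in both. The spread between replicates was wider in 786-0, with a biological coefficient of variation of 0.0634 against 0.0337 in A-498, and both lines shared 1 estimate in the fit. The largest disagreement between replicates of a group was between 786-0 Control-IFNg replicates 1 and 2, and without replicate 1 the counts were 2389 and 2680.

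**Figure D1:**
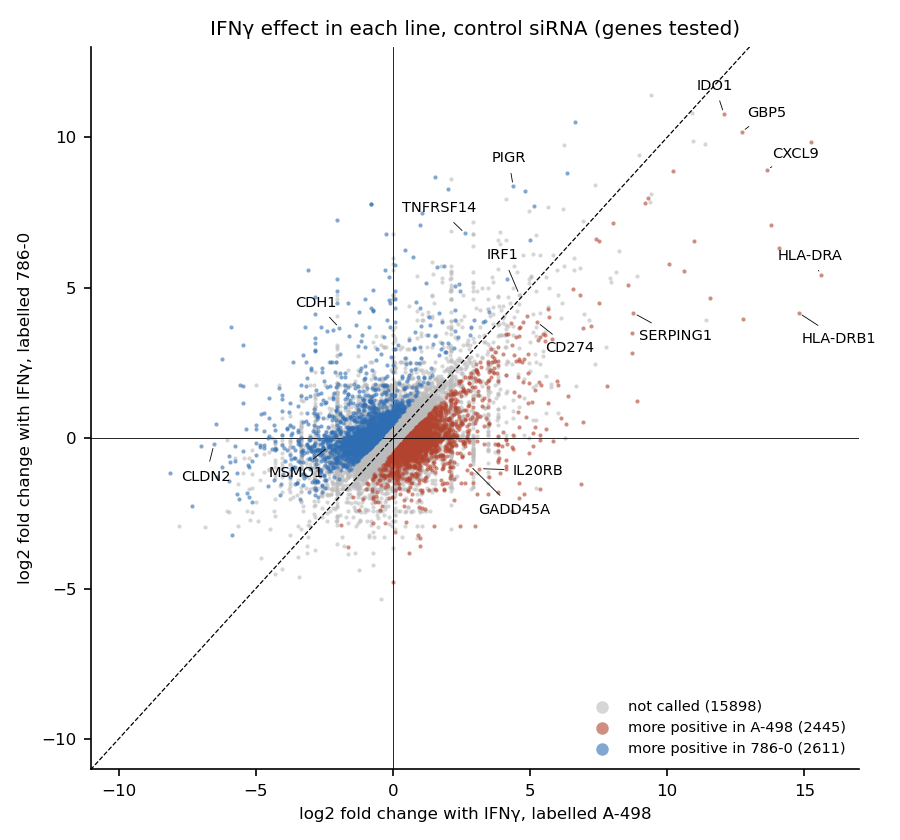
Log2 fold change with IFNγ in A-498 (x axis) against that in 786-0 (y axis) for the 20954 genes tested, control siRNA. Each point is a gene, the dashed line marks equal effects, and colour marks the 2611 genes more positive in 786-0 and the 2445 more positive in A-498. Fitted values of genes with a group at 0, HLA-DRA in A-498 among them, depend on a prior count.

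The calls fell into a few patterns, and the commonest were a change past the threshold in A-498 without one in 786-0. Of the genes more positive in 786-0, 1534 fell in A-498 without passing the threshold in 786-0, with a median effect of -0.98 in A-498 and -0.03 in 786-0. A further 339 rose in 786-0 alone, 206 fell in both lines, 134 fell in A-498 and rose in 786-0, and 72 rose in both. Of the genes more positive in A-498, 1342 rose in A-498 alone, with medians of 0.92 in A-498 and -0.01 in 786-0. Another 308 rose in both, 287 fell in 786-0 alone, 99 rose in A-498 and fell in 786-0, and 24 fell in both. The remaining 326 and 385 passed the threshold in neither line. The bar chart of these patterns gives the counts side by side.

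**Figure D2:**
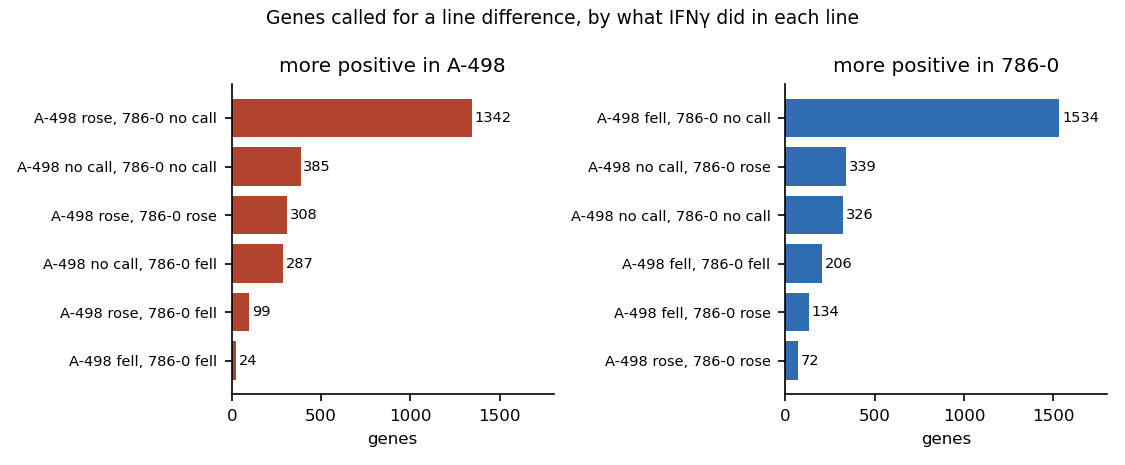
Number of genes with a line difference (x axis) by what IFNγ did in each line (y axis), for genes more positive in A-498 (left, red) and in 786-0 (right, blue). The longest bars are genes that rose (1342) or fell (1534) in A-498 and passed no threshold in 786-0.

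HLA class II genes, which present peptides to CD4+ T cells, rose in all 13 tested members in both lines, and 9 of them rose more in A-498 against 1 in 786-0. The share of the list called was 76.9%, against 24.1% of all genes. The median line difference of the list was -4.25, or -2.93 with groups at 0 set to a floor of 3 counts. HLA-DRA (chr6:32439878-32445046), the alpha chain of HLA-DR, was at 0 in the 3 untreated A-498 libraries and at 265, 254 and 230 CPM with IFNγ. In 786-0 it stood at 9.60, 7.63 and 7.19 CPM without IFNγ and at 358, 353 and 348 CPM with it. The untreated groups did not overlap, and the level with IFNγ was higher in 786-0. From 0 to 15124 summed counts, the A-498 change was at least 5384-fold, while the 786-0 change was 43.2-fold (adjusted p = 2.29e-15 for the line difference). HLA-DRB1 changed in the same manner, at least 3038-fold in A-498 and 18.0-fold in 786-0, and HLA-DQB1 at least 1876-fold and 85.7-fold. HLA-DPB1 went from 3 summed counts to 4885 in A-498, a ratio of 1739 with a 95% counting interval of 595 to 8435, and changed 46.7-fold in 786-0. HLA-DRB1 and HLA-DRB5 are near-identical and may share reads, so the split between them is uncertain. HLA-DQA1 rested on few counts in 786-0, and its call was lost without any 1 of the A-498 Control replicates (fitted line difference -6.71) or without 786-0 Control replicate 2 (-5.02). These fitted values depend on a prior count, since the untreated A-498 libraries were at 0.

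The class II transactivator and chaperone differed less between the lines. CIITA stood at 30.4, 29.1 and 29.3 CPM in untreated A-498 and at 206, 196 and 202 CPM with IFNγ. In 786-0 it went from 44.7, 46.0 and 43.2 to 236, 266 and 272 CPM. Its line difference was -0.23 ± 0.08 (SE, n = 3 per group), under the size threshold (adjusted p = 0.0158). CD74, the chaperone of class II molecules, started from 21.4, 21.9 and 22.0 CPM in A-498 and from 22.2, 19.0 and 21.4 in 786-0, which overlap, and reached 3804, 3632 and 3655 CPM against 1874, 2201 and 2092. The line difference of CD74 was -0.79 ± 0.09 (adjusted p = 1.80e-09). HLA-DMB, a subunit of the peptide exchanger HLA-DM, was the 1 member more positive in 786-0 (0.68 ± 0.17, adjusted p = 0.00146), while its partner HLA-DMA differed by -1.92 ± 0.11.

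HLA class I molecules and the machinery that loads them with peptide gave 8 calls in 14 tested members (57.1%, against 24.1% of all genes). Of these, 5 were more positive in A-498 and 3 in 786-0. HLA-B went from 727, 730 and 724 to 4979, 4999 and 4880 CPM in A-498 and from 744, 710 and 800 to 2459, 2907 and 2740 CPM in 786-0. The untreated levels overlapped and the IFNγ levels did not, with a line difference of -0.92 ± 0.07 (adjusted p = 9.93e-13). HLA-C, HLA-F and the peptide transporter TAP1 were also more positive in A-498, by -0.67 to -1.14. NLRC5, the class I transactivator, was more positive in 786-0 (0.59 ± 0.08), as were ERAP2, which trims peptides (0.84 ± 0.07), and PDIA3, a folding enzyme of the loading complex (0.61 ± 0.07). B2M, the light chain, differed by only -0.20 ± 0.07. Of the immune proteasome, 1 of 4 tested subunits was called (25.0%, near the 24.1% of all genes): PSMB9 at -1.25 ± 0.07 (adjusted p = 1.67e-16).

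Among the transcription factors between the receptor and these targets, IRF1 and STAT2 had no line difference called, and others did. IRF1 stood at 65.7, 69.2 and 70.7 CPM in untreated A-498 and at 1684, 1742 and 1627 CPM with IFNγ. It stood at 37.3, 36.4 and 38.2 CPM in untreated 786-0 and at 937, 1051 and 1018 CPM with IFNγ. Every 786-0 level was below its A-498 counterpart, yet the effects were 4.62 ± 0.06 and 4.75 ± 0.06, and the line difference of 0.13 ± 0.07 was not called (adjusted p = 0.179). STAT2 likewise gave 2.48 and 2.35, with a difference of -0.13 ± 0.08 (adjusted p = 0.169). Calls among the 8 interferon regulatory factors tested were IRF7, the amplifier of interferon responses, at -1.55 ± 0.11, IRF3 at 0.67 ± 0.08, and 1 more in favour of 786-0. Of 11 tested receptor, JAK and STAT genes, 4 were called, evenly between the lines. STAT5A was among them at 1.98 ± 0.49, and so was PTPN6, the phosphatase SHP-1, which fell in A-498 and rose in 786-0 (1.67 ± 0.11). The share called was 37.5% of the regulatory factors and 36.4% of the receptor, JAK and STAT genes, against 24.1% of all genes. Another 8 genes of the latter list were at 0 in all 786-0 libraries and were not compared.

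The CXCR3 ligands CXCL9, CXCL10 and CXCL11, which draw activated T cells, all rose in both lines and all more in A-498. Over all genes tested, 11.7% were called toward A-498. CXCL9 was at 0.0465, 0.0465 and 0 CPM in untreated A-498 and at 481, 436 and 450 CPM with IFNγ. In 786-0 it went from 0.0617, 0.0688 and 0.1 to 36.7, 42.7 and 39.6 CPM. The untreated levels are a few counts per library, and the levels with IFNγ did not overlap. From 2 summed counts, the A-498 ratio had a 95% counting interval of 4062 to 121200, and the 786-0 ratio was 517. CXCL10 reached 1953, 2002 and 1830 CPM in A-498 and 91.2, 85.1 and 75.3 CPM in 786-0, from untreated levels of 1.49 to 1.82 and 0.103 to 0.268 CPM. Its line difference was -1.34 ± 0.42 (adjusted p = 0.0110), and without 786-0 Control replicate 3 it was -0.93 and no longer called. CXCL11 differed by -1.37 ± 0.44 (adjusted p = 0.0188), a call lost without A-498 Control replicate 1 (-1.06) or 3 (-1.2) or without 786-0 Control replicate 3 (-1.30). With 786-0 Control replicate 3 left out, 1 of the 3 ligands was called.

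Chemokines for other receptors went both ways. CCL2, which attracts monocytes, rose from 9.17, 10.5 and 9.68 to 19.2, 17.5 and 20.1 CPM in A-498 and from 12.7, 13.1 and 14.0 to 66.6, 81.7 and 75.8 CPM in 786-0. The levels with IFNγ were apart in every library, and the line difference was 1.54 ± 0.12 (adjusted p = 2.17e-13). CX3CL1 was also more positive in 786-0 (0.83 ± 0.12) and CCL5 in A-498 (-1.67 ± 0.17). These were the 3 calls among 9 tested members of that list (33.3%, against 24.1% of all genes). Of 4 tested neutrophil chemokines acting on CXCR2, 2 rose and 2 fell in A-498. Calls were 2 toward 786-0 and 1 toward A-498 (75.0% in all, against the same 24.1%). CXCL8 fell in A-498 from 45.6, 50.1 and 44.3 to 17.2, 20.9 and 17.7 CPM and stayed under 1 CPM in 786-0 in all 6 libraries. CXCL1 fell in A-498 and rose in 786-0 (1.43 ± 0.27), at a level of at most 1.68 CPM in 786-0. Interleukins and growth factors gave 3 calls toward 786-0 and 2 toward A-498 in 13 tested members (38.5% in all, against 24.1%). Among the 3, IL18, an interleukin that acts on T and NK cells, rose in 786-0 from 8.03, 8.25 and 7.02 to 30.7, 24.1 and 24.9 CPM, with a line difference of 2.17 ± 0.30.

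Guanylate-binding proteins, GTPases of cell-intrinsic defense, rose in all 6 tested members in both lines. More positive in A-498 were 4 of them (66.7%, against 11.7% of all genes). GBP5 was at 0.279, 0.372 and 0.558 CPM in untreated A-498 and at 2870, 2728 and 2682 CPM with IFNγ. In 786-0 it went from 0.370, 0.619 and 0.234 to 474, 479 and 472 CPM. The untreated levels overlapped, the levels with IFNγ did not, and the line difference was -2.54 ± 0.34 (adjusted p = 8.42e-08). GBP1, GBP2 and GBP4 had the same form, at -1.64, -0.84 and -1.30. Of 28 tested antiviral interferon-stimulated genes, all 28 rose in 786-0 and 27 in A-498, and 19 rose more in A-498 against 2 in 786-0. The list had a median line difference of -0.81, and 75.0% of its tested members were called, against 24.1% of all genes. MX1, which blocks virus replication, was 1 of several with a lower untreated level in A-498: it went from 8.05, 8.09 and 8.28 to 321, 310 and 330 CPM there and from 38.9, 38.5 and 42.6 to 378, 386 and 388 CPM in 786-0 (-2.03 ± 0.08). ISG15, a ubiquitin-like modifier, had the higher untreated level in A-498 and differed by -2.03 ± 0.08 as well. BST2, which tethers virus particles, was more positive in 786-0 (0.89 ± 0.07). Of 12 tested sensors of foreign nucleic acid, 5 were more positive in A-498, IFIH1 among them (-1.26), and 2 in 786-0, TLR4 among them (2.00). The share of these sensors called was 58.3%, against 24.1% of all genes.

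Complement held 11 calls in 13 tested members (84.6%, against 24.1% of all genes), 8 of them more positive in A-498. C1S and C1R had a low untreated level in A-498 and overlapping levels in both lines with IFNγ. C1S, a protease of the classical pathway, went from 37.5, 39.1 and 40.4 to 1234, 1194 and 1154 CPM in A-498. In 786-0 it stood at 564, 535 and 579 CPM without IFNγ and at 1193, 1331 and 1275 CPM with it. The untreated levels were far apart and the IFNγ levels overlapped, with a line difference of -3.76 ± 0.07 (adjusted p = 4.17e-30). SERPING1 (chr11:57597387-57619171), the inhibitor of C1S and C1R, went from 0.140, 0.0930 and 0.140 to 60.9, 52.3 and 55.6 CPM in A-498 and from 4.57, 4.71 and 4.38 to 76.3, 84.5 and 83.9 CPM in 786-0 (-4.61 ± 0.28, adjusted p = 4.65e-16). The untreated A-498 levels of SERPING1 are a few counts per library. C1R and C2 differed by -3.46 and -3.01, and C4A and C4B, which share nearly all their sequence and cannot be separated with certainty, by -3.12 and -2.76. C3, the central component, differed by 0.31 ± 0.08, under the size threshold. The same look at untreated levels over all 308 genes that rose in both lines and more in A-498 found the untreated level higher in 786-0 in 182 of them and the IFNγ level higher in 786-0 in 96. Of the 72 genes that rose in both lines and more in 786-0, the untreated level was higher in 786-0 in 19 and the IFNγ level in 36. Both classes were chosen by a line difference computed from these same levels, so part of this pattern is built into the choice.

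**Figure D3:**
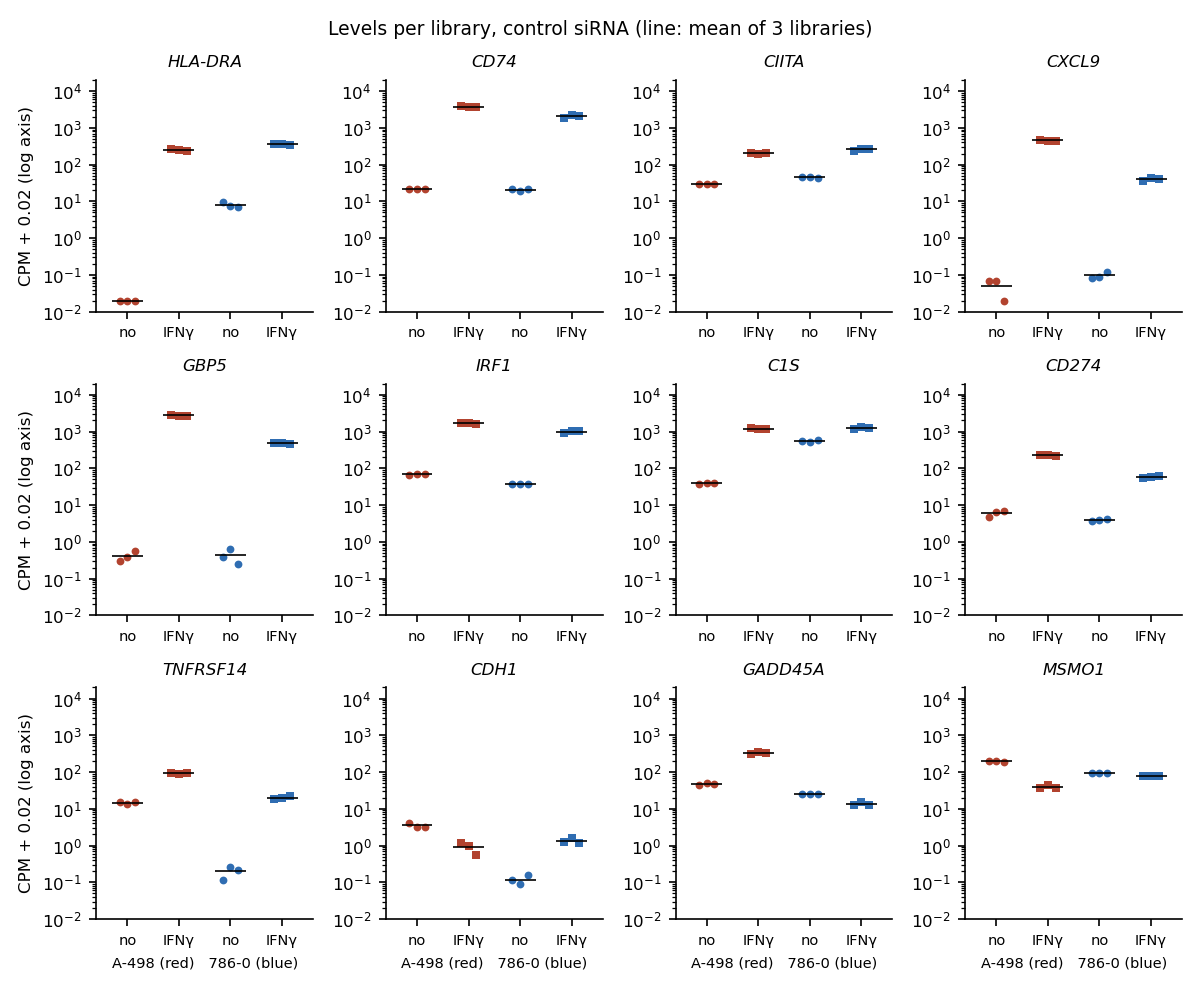
CPM plus 0.02 on a log axis in each of the 12 control siRNA libraries for 12 genes, A-498 in red and 786-0 in blue, circles without and squares with IFNγ, with a bar at the mean of 3 libraries. HLA-DRA starts at 0 in A-498, C1S starts lower in A-498 and ends at overlapping levels, GBP5 starts alike and ends higher in A-498, and GADD45A moves in opposite directions.

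CD274 (chr9:5450503-5470566), the gene of PD-L1, was at 4.65, 6.42 and 6.70 CPM in untreated A-498 and at 224, 235 and 218 CPM with IFNγ. In 786-0 it was at 3.73, 4.02 and 4.08 CPM without and at 53.3, 56.7 and 62.3 CPM with IFNγ. The level was lower in 786-0 in both states and the gap widened with IFNγ, for a line difference of -1.39 ± 0.14 (adjusted p = 2.97e-10). Of the 17 checkpoint and costimulatory ligands tested, 2 were more positive in A-498 and 6 in 786-0, at a median of 0.16. That is 47.1% in either direction, against 24.1% of all genes, although with DESeq2 in place of edgeR 3 were called for 786-0. TNFSF10, the death ligand TRAIL, was abundant in A-498 from the start, at 1612, 1649 and 1565 CPM and at 2223, 2263 and 2025 CPM with IFNγ. It rose in 786-0 from 38.9, 36.2 and 38.0 to 234, 244 and 246 CPM, a line difference of 2.25 ± 0.07 (adjusted p = 6.09e-24). TNFRSF14, the receptor HVEM, rose in both lines, from 15.4, 13.7 and 15.2 to 92.9, 89.9 and 91.5 CPM in A-498 and from 0.0926, 0.241 and 0.201 to 18.5, 19.9 and 21.9 CPM in 786-0 (4.17 ± 0.23). Its level with IFNγ in 786-0 remained below that in A-498. PIGR, which carries antibodies across epithelia, ended higher in 786-0 at 25.4, 26.8 and 29.0 CPM against 9.49, 9.89 and 9.06 CPM, from under 1 CPM in every untreated library. APOBEC3G, a cytidine deaminase that restricts retroviruses, rose from 3.77, 5.02 and 4.70 to 18.8, 17.8 and 17.6 CPM in A-498 and from 0.0309, 0.0344 and 0.1 to 15.4, 19.4 and 20.7 CPM in 786-0 (6.27 ± 0.35, adjusted p = 7.30e-17). Its untreated levels in 786-0 are a few counts per library, so the size of that rise is uncertain.

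IDO1, the enzyme that opens the kynurenine pathway, rose in A-498 from 0.0931, 0.326 and 0.0465 to 694, 712 and 658 CPM and in 786-0 from 0.648, 0.584 and 0.602 to 1150, 1079 and 1029 CPM. Its end level was higher in 786-0 and its line difference was -1.29 ± 0.41 (adjusted p = 0.0106), which was lost without A-498 Control replicate 1 (-1.03) or 3 (-0.87). WARS1, the tryptophanyl-tRNA synthetase, rose in both lines by 5.04 and 5.38, with a difference of 0.34 under the size threshold. Of 23 tested tryptophan and NAD genes, 5 were called in each direction (43.5% in all, against 24.1% of all genes). QPRT, which makes a precursor of NAD at the end of the pathway, fell in A-498 from 252, 231 and 230 to 112, 122 and 108 CPM. In 786-0 it was at 692, 685 and 723 against 582, 688 and 661 CPM (0.94 ± 0.08). AFMID fell in A-498 as well (0.77 ± 0.13), whereas KMO fell in both lines and differed by 0.18 ± 0.08. NAMPT, the entry of NAD salvage, rose more in A-498 (-1.32 ± 0.07).

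The list of TNF signaling via NFκB and that of early response genes were called in 1 direction. CC chemokines, CXCR2 ligands and interleukins stood in other lists, where calls went both ways. Of 28 tested members of TNF signaling via NFκB, 11 (39.3%) were more positive in A-498, against 11.7% of all genes, and 0 in 786-0. Toward 786-0, 5 had an unadjusted p-value under 0.05 with edgeR and DESeq2 also called 0. Another 9 members, NFKBIA among them, were at 0 in all 786-0 libraries and were not compared. Of 21 AP-1 and immediate early factors, 11 (52.4%) were more positive in A-498, against the same 11.7%, and 0 in 786-0. Toward 786-0, 0 had an unadjusted p-value under 0.05 with edgeR and 0 were called by DESeq2. The latter list had a median line difference of -0.77. KLF4, a transcription factor, went from 8.56, 8.32 and 8.89 to 121, 124 and 121 CPM in A-498 and from 14.1, 15.0 and 15.4 to 50.1, 58.4 and 58.5 CPM in 786-0 (-1.92 ± 0.10). JUN, a subunit of AP-1, rose in A-498 from 125, 134 and 133 to 425, 418 and 424 CPM, and in 786-0 its levels were 107, 110 and 121 without and 125, 154 and 144 CPM with IFNγ (-1.37 ± 0.08). ATF3 rose in both and differed by -1.27 ± 0.09. RELA, a subunit of NFκB, differed by -1.06 ± 0.07, and TNFAIP3, its feedback inhibitor, by 0.32 ± 0.11, under the size threshold. TRAF1, an adaptor of TNF receptors, differed by -0.80 ± 0.25 (adjusted p = 0.0304). That call was lost without any of 7 libraries, at -0.76 to -0.83: A-498 Control replicates 1 and 3, A-498 Control-IFNg replicates 1 and 3, and 786-0 Control replicates 1, 2 and 3.

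Targets of hypoxia-inducible factors, which are active in this tumor type when VHL is lost, gave 13 calls in 19 tested members. All of these calls were more positive in A-498 (68.4%, against 11.7% of all genes). VEGFA, NDRG1 and EGLN3 were at 0 in all 786-0 libraries and were not compared. Toward 786-0, edgeR and DESeq2 called 0 and edgeR gave 2 at an unadjusted p-value under 0.05. In A-498, 8 rose and 2 fell, and 6 fell in 786-0. EPAS1, which encodes HIF-2α itself, rose from 461, 465 and 482 to 968, 914 and 942 CPM in A-498 and fell from 173, 162 and 180 to 82.6, 96.0 and 92.9 CPM in 786-0 (-1.93 ± 0.07, adjusted p = 1.69e-21). ANGPTL4, a secreted inhibitor of lipoprotein lipase, rose from 7.03, 8.04 and 7.77 to 25.7, 19.6 and 22.0 CPM and fell from 95.8, 95.4 and 98.8 to 38.2, 54.8 and 53 CPM. ADM and PLIN2 differed by -1.66 and -1.30. HIF1A differed by 0.40, under the size threshold.

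Amino acid stress and p53 targets had a similar direction. Of 22 tested ATF4 targets, 11 (50.0%) were more positive in A-498, against 11.7% of all genes, and 0 in 786-0. Toward 786-0, 1 had an unadjusted p-value under 0.05 with edgeR and 0 were called by DESeq2. IFNγ raised 16 of the 22 in A-498, and in 786-0 it raised 5 and lowered 3. SESN2, a sensor of leucine, rose in A-498 from 112, 113 and 111 to 328, 314 and 332 CPM, and was at 66.0, 66.5 and 70.2 against 42.8, 59.2 and 54.2 CPM in 786-0 (-1.91 ± 0.11). SLC7A5, a transporter of large neutral amino acids that include tryptophan, was at 2253, 2229 and 2253 against 2608, 2581 and 2658 CPM in A-498 and fell in 786-0 from 761, 747 and 791 to 350, 306 and 295 CPM (-1.49 ± 0.07). ASNS and CHAC1 rose in both lines with no line difference called. Of 19 tested p53 targets, 9 (47.4%) were more positive in A-498, against the same 11.7%, and 0 in 786-0. Toward 786-0, 3 had an unadjusted p-value under 0.05 with edgeR and 0 were called by DESeq2. FAS, a death receptor, was among the 9 (-1.06 ± 0.08). MDM2, the ubiquitin ligase that limits p53, differed by -0.02 ± 0.07, and CDKN1A was among the rows at 0.

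Cholesterol synthesis was the list with the largest share of calls toward 786-0, 16 of 19 tested members (84.2%) against 12.5% of all genes. Toward A-498, edgeR and DESeq2 called 0, and 0 had an unadjusted p-value under 0.05 with edgeR. In A-498, 14 fell, and in 786-0, 2 rose and 1 fell. The median line difference was 1.05. MSMO1, a sterol oxidase of the pathway, fell from 206, 200 and 186 to 37.6, 43.1 and 36.0 CPM in A-498 and was at 95.2, 93.3 and 96.6 against 79.5, 78.0 and 77.1 CPM in 786-0 (2.06 ± 0.08, adjusted p = 1.61e-21). INSIG1, which restrains the pathway, fell in A-498 and rose in 786-0 (1.71 ± 0.15). In 786-0 the value of Control-IFNg replicate 1 lay below the other two for INSIG1, at 208 against 287 and 281 CPM, and without that library 14 members were called.

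Of 42 tested cell cycle genes, 22 were more positive in 786-0 and 1 in A-498. In all, 54.8% were called, against 24.1% of all genes. In A-498, 24 fell past the threshold. In 786-0, 0 passed it with edgeR, although 23 were lower and 5 higher at an unadjusted p-value under 0.05, and the median effect was -0.14 against -0.58 in A-498. KIF20A, a kinesin of cytokinesis, fell from 113, 110 and 107 to 26.0, 27.6 and 25.8 CPM in A-498 and was at 89.9, 90.4 and 96.1 against 73.1, 74.1 and 74.2 CPM in 786-0 (1.74 ± 0.07, adjusted p = 2.74e-20). CDC20, an activator of the anaphase-promoting complex, fell from 154, 148 and 146 to 66.3, 62.9 and 68.3 CPM in A-498 and was higher in all 3 IFNγ libraries of 786-0, at 181, 156 and 158 against 135, 136 and 137 CPM, by 0.28. TOP2A differed by 0.97 ± 0.07. The replication licensing genes MCM2 and MCM7 differed by -0.01 and 0.03 with no call, and CDC6, of the same step, was the 1 member more positive in A-498. Ribosomal protein genes gave 5 calls (19.2%) and nuclear genes of oxidative phosphorylation 9 (34.6%), in 26 tested members each, all toward 786-0, against 12.5% of all genes in that direction and 24.1% in either. EdgeR gave 0 toward A-498 at an unadjusted p-value under 0.05 and DESeq2 called 0. RPL5 fell in A-498 from 929, 953 and 892 to 464, 493 and 442 CPM and was at 589, 586 and 593 against 640, 542 and 542 CPM in 786-0.

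Of 19 tested glycolysis genes, 5 were called in each direction (52.6% in all, against 24.1% of all genes). Another 5 members, SLC2A1, ALDOA, SLC16A1, SLC16A3 and PDK1, were at 0 in all 786-0 libraries and were not compared. HK2, the first enzyme, rose from 83.3, 87.3 and 83.9 to 189, 203 and 199 CPM in A-498 and from 18.7, 18.2 and 21.1 to 24.8, 31.4 and 27.8 CPM in 786-0 (-0.68 ± 0.09). SLC2A3, a glucose transporter, rose in A-498 and fell in 786-0 (-2.24 ± 0.25), and GPI fell in A-498 (0.71 ± 0.07). The count for this list is sensitive, since 3 members were called toward 786-0 without A-498 Control-IFNg replicate 1 or without replicate 3. Of 21 glutamine genes, 3 were called in each direction (28.6% in all, near the 24.1% of all genes), and SLC1A5, a glutamine transporter, differed by -0.08 ± 0.07. Markers of kidney epithelium gave 6 calls toward 786-0 in 9 tested members (66.7%, against 12.5% of all genes). CDH6, a cadherin of the proximal tubule, fell from 610, 620 and 569 to 44.9, 59.5 and 46.8 CPM in A-498 and was at 212, 208 and 231 against 157, 173 and 170 CPM in 786-0 (3.19 ± 0.11).

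**Figure D4:**
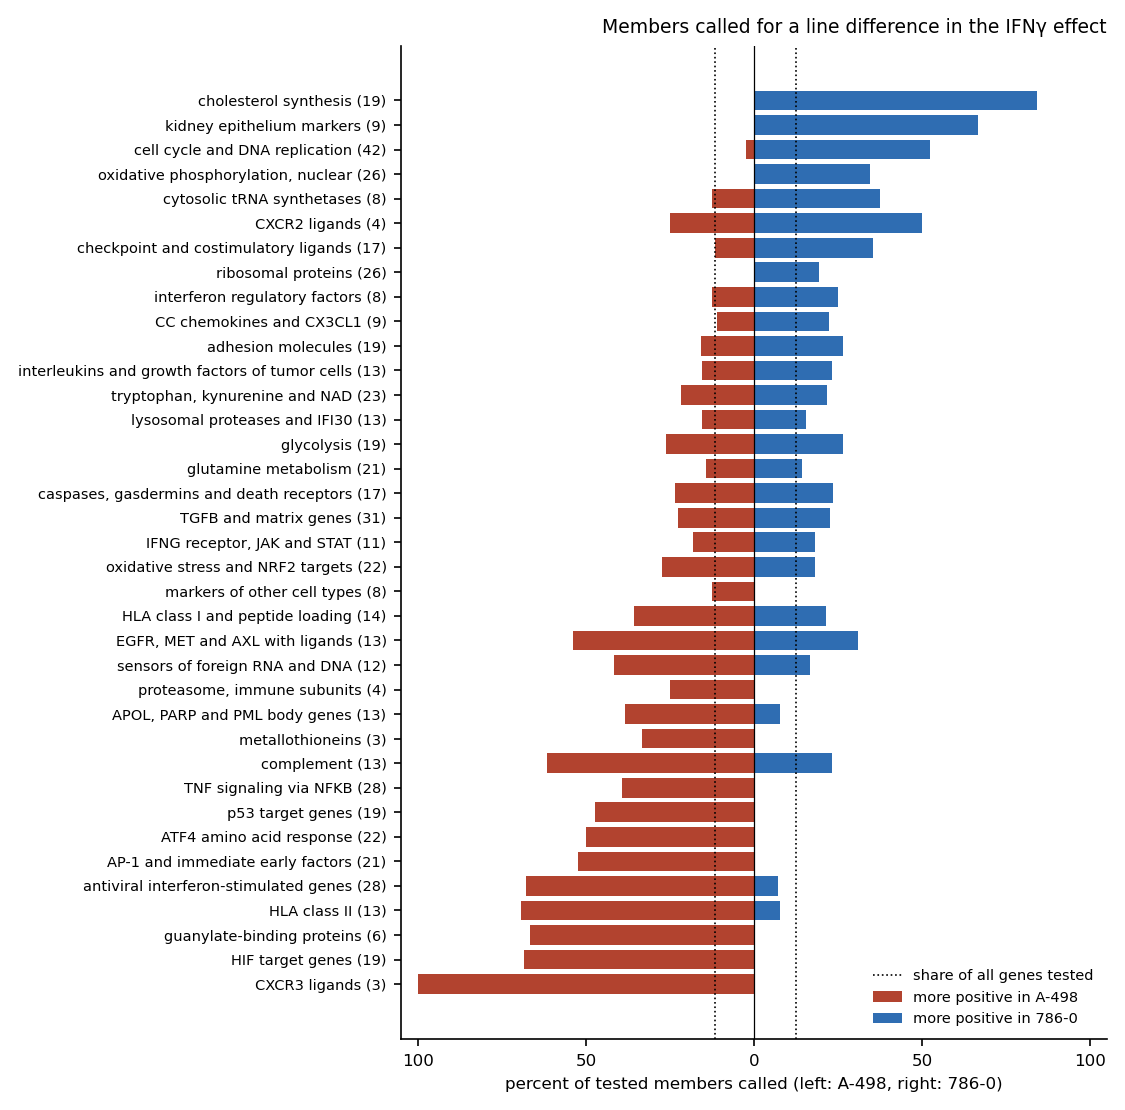
Share of the tested members of 37 gene lists (y axis, number tested in brackets) with a line difference, in percent (x axis, both sides from 0), more positive in A-498 to the left in red and in 786-0 to the right in blue. Dotted lines mark the shares over all genes tested, 11.7% and 12.5%, and cholesterol synthesis extends farthest to the right at 84.2%.

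Among protein-coding genes with at least 10 CPM in a group and 1 CPM in each line, 6 of the 10 largest differences toward 786-0 were genes that IFNγ lowered in A-498. That is no trait of the largest differences, since most calls toward 786-0 fell in A-498. Of all these calls, 58.8% fell in A-498 alone, 7.9% fell in both lines and 5.1% fell in A-498 and rose in 786-0. CLDN2, a claudin that forms cation pores in the proximal tubule, fell from 59.6, 53.4 and 57.2 to 0.688, 0.687 and 0.439 CPM in A-498. In 786-0 it was at 14.5, 13.4 and 15.2 against 10.6, 13.4 and 13.4 CPM, a line difference of 6.31 ± 0.18 (adjusted p = 7.99e-26). VAV3, a guanine nucleotide exchange factor, fell from 116, 114 and 110 to 3.54, 6.32 and 4.61 CPM and stayed between 41.2 and 45.5 CPM in the 6 libraries of 786-0 (4.53 ± 0.12). KCNJ16, a potassium channel of the tubule, fell from 92.3, 86.8 and 82.0 to 4.82, 6.05 and 5.6 CPM in A-498 (3.65 ± 0.11), and MMP7, a matrix protease, from 122, 128 and 123 to 17.4, 19.4 and 17.8 CPM while it rose in 786-0 (3.39 ± 0.08). AKR1C3, an aldo-keto reductase of steroids, fell from 91.6, 84.9 and 80.8 to 9.44, 10.5 and 9.28 CPM in A-498 and was at 1390 to 1890 CPM in 786-0 (2.92 ± 0.15). Toward A-498, CMKLR2 rose from 0.558, 0.790 and 0.605 to 45.3, 49.0 and 44.8 CPM there and from 10.5, 12.2 and 11.1 to 18.9, 18.5 and 15.8 CPM in 786-0 (-5.48 ± 0.17).

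Opposite responses, past the threshold in both lines, were seen in 233 genes. GADD45A, a growth arrest gene, rose from 44.3, 50.5 and 46.5 to 318, 343 and 326 CPM in A-498 and fell from 25.1, 25.3 and 25.9 to 12.8, 15.3 and 12.6 CPM in 786-0 (-3.71 ± 0.09, adjusted p = 1.56e-27). IL20RB, a receptor subunit for interleukins of the IL-20 group, rose from 1.77, 1.95 and 1.96 to 18.8, 15.3 and 16.5 CPM and fell from 47.6, 49.3 and 50.3 to 27.1, 23.4 and 22.4 CPM (-4.17 ± 0.14). PTGFR, the prostaglandin F receptor, did likewise at lower levels (-3.03 ± 0.26). In the other direction, SEMA3A, a secreted guidance factor, fell from 42.4, 41.1 and 39.0 to 6.20, 7.28 and 6.42 CPM in A-498 and rose from 1.2, 0.997 and 1.04 to 2.37, 2.39 and 2.46 CPM in 786-0 (3.76 ± 0.18). CDH1, the gene of E-cadherin, fell from 4.05, 3.25 and 3.26 to 1.18, 0.962 and 0.549 CPM in A-498 and rose from 0.0926, 0.0688 and 0.134 to 1.2, 1.58 and 1.12 CPM in 786-0 (5.61 ± 0.43). The untreated 786-0 levels of CDH1 are a few counts per library. COL8A1, a collagen, fell from 352, 347 and 328 to 115, 123 and 111 CPM in A-498 and rose from 38.6, 38.9 and 38.0 to 91.9, 85.8 and 83.8 CPM in 786-0 (2.73 ± 0.07).

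The 12 PD-L1 siRNA libraries share no sample with those above and gave the same contrast a second time. They come from the same lines on the same instruments, so line and instrument cannot be told apart here either. The share of same signs over all genes tested was not computed. A line difference was called there for 4754 of 21103 genes tested (22.5%), 2472 toward 786-0 and 2282 toward A-498. Of the genes called toward 786-0 with control siRNA, 2601 were tested with PD-L1 siRNA and 2519 (96.8%) had the same sign. Of the 2601, 1719 (66.1%) were called again in the same direction and 3 in the opposite one. Of those toward A-498, 2431 were tested, 2363 (97.2%) had the same sign, and of the 2431, 1621 (66.7%) were called again and 2 in the opposite direction. C1S was at -3.76 with control siRNA and -3.74 with PD-L1 siRNA, CLDN2 at 6.31 and 5.17, MSMO1 at 2.06 and 1.82 and GADD45A at -3.71 and -3.23. CD274, the siRNA's target, was at -1.39 and -0.55. UBD, a ubiquitin-like protein, was at 0 in the untreated 786-0 libraries and at 7.10, 7.31 and 7.46 CPM with IFNγ, a change of at least 222-fold against 100-fold in A-498. Its fitted line difference with control siRNA depends on a prior count and is not given.

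**Figure D5:**
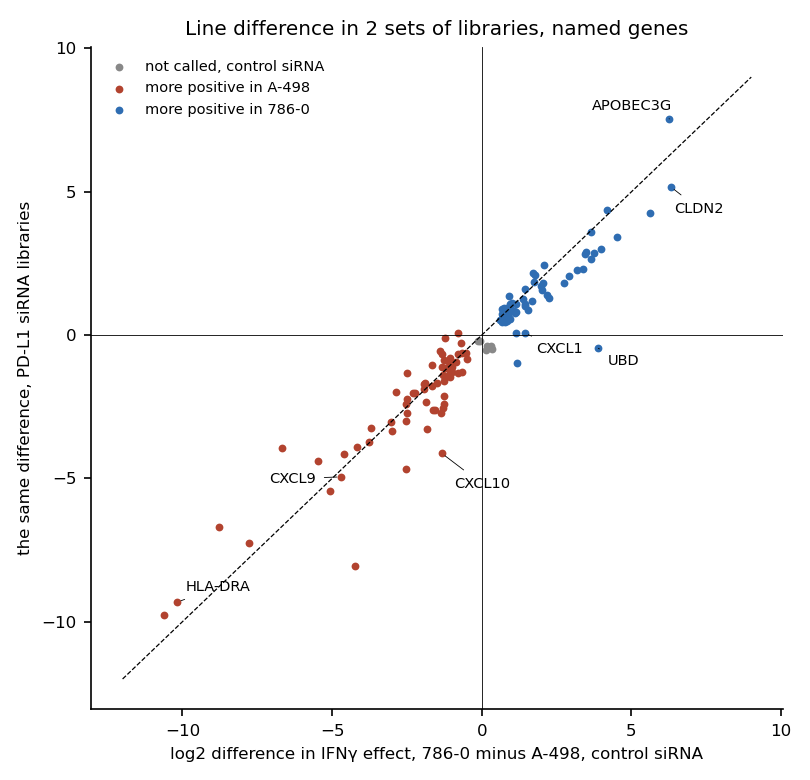
Line difference in the log2 IFNγ effect, 786-0 minus A-498, in the control siRNA libraries (x axis) against the PD-L1 siRNA libraries (y axis) for the named genes, with the dashed line at equality. HLA-DRA, CXCL9, CLDN2 and APOBEC3G lie toward the ends in both sets. The positions of HLA-DRA and UBD depend on a prior count, since each had an untreated control siRNA group at 0.

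The difference between the 2 line differences was itself tested in 1 model of all 24 libraries. It passed the threshold in 249 of 21584 genes (1.15%), 180 more positive with control siRNA and 69 with PD-L1 siRNA. CXCL10 had the widest change among the named genes that passed, with a line difference of -1.34 with control siRNA and -4.12 with PD-L1 siRNA. The control siRNA value rests on a few counts per library in untreated 786-0. Without 786-0 Control replicate 3 that value was -0.93 and not called. IRF1, with no line difference called under control siRNA, was at -0.52 with PD-L1 siRNA, and the 2 values differed by 0.67.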

How the data were processed

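Per the labels and the study's methods, the authors trimmed reads with Trimmomatic 0.36.6, aligned them to GRCh38/hg38 with HISAT2 2.1.0 and counted stranded reads per gene of GENCODE 33 with featureCounts 1.6.3, after base calling with bcl2fastq 2.19.0 (versions also stand in the submitters' processing notes). The deposited values are raw counts, whole numbers without normalization or filter. Gene names came from GENCODE 44, and 173 of 39321 rows had none. Those rows entered no gene list. Total counts were 22661343 to 30245244 per control siRNA library, and counting intervals and floors cover counting error only. Rows at 0 in all 12 libraries of either line took 14.1 to 14.4% of an A-498 control library and 0.0727 to 0.0801% of a 786-0 one, and were left out.

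Genes that reached 10 counts in sum over the libraries of a group were scaled with TMM and fitted in edgeR 4.0.16 (R 4.3.3) with 1 mean per group (quasi-likelihood F-test, robust, 8 residual degrees of freedom). The line difference, the IFNγ effects within each line and their standard errors come from this fit, with Benjamini-Hochberg adjustment over all genes tested. A call needed an adjusted p under 0.05 and a log2 size over 0.5. The fit was tested on simulated data of 20954 genes, 200 of them changed. It recovered 87 of 100 line differences of log2 1 and 98 of 100 of log2 2, with 5 false among 190 calls. These rates hold for the simulated setting only, since 24.1% of genes were called in the real data. Rates for genes at low counts, or for a spread that differs between the lines, were not tested.

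The comparison, its members and the 37 gene lists, which were written from textbook knowledge, were chosen with earlier results of these data known. List counts carry no test of the list. Genes named by rule were the 10 largest differences in each direction among called protein-coding genes (at least 10 CPM in a group and 1 CPM in each line), the 2 largest per list and direction above 1 CPM in each line, genes the study names, and the 3 largest opposite responses in each direction. Other list members are examples chosen after their values were seen. A fold against a group at 0 was taken against 3 counts over the group, and exact 95% binomial intervals were used for 1 to 3 counts. Promoter sequences were matched by symbol. The alternatives were DESeq2 1.42.0, limma 3.58.1 (voom), other scalings, filters, thresholds and fits, the replicate number as a block, and the omission of each library. Fold changes and p-values in the study's own supplementary tables were not used for any result. Results on a few genes are not reported here.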

Additional observations from a re-analysis of the deposited data

Results flagged for a closer look

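The contrast itself is a difference between groups: the IFNγ effect was more positive in 786-0 in 2611 genes and in A-498 in 2445. The 12 PD-L1 siRNA libraries, which the main comparison does not use, gave a line difference in 4754 genes. The line difference itself differed between control and PD-L1 siRNA in 249 genes, tested as the three-way term of 1 model of all 24 libraries with edgeR.

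Of the named genes given here, 20 were among these 249, and in 19 of them the line difference was more positive with control siRNA than with PD-L1 siRNA. Of all 249, 180 went that way and 69 the other. The named genes are no random draw from the 249. The values that follow are line differences with control siRNA minus those with PD-L1 siRNA, on the log2 scale. The chemokines CXCL10 and CXCL1 were at 2.80 and 1.37. The interferon-response genes IRF7, GBP1, PSMB9 and IRF1 were at 1.08, 0.98, 0.89 and 0.67. ATF3, TNFAIP3 and C3, of the inflammatory response, were at 1.15, 0.84 and 0.70, and the death ligand TNFSF10 was at 0.96. MMP7 and COL8A1, of the matrix, were at 1.09 and 0.92. Genes that fell in A-498 with control siRNA included CLDN2 at 1.16, VAV3 at 1.14, KCNJ16 at 1.01, CDH6 at 0.95, SEMA3A at 0.91 and AKR1C3 at 0.89. KMO, of the kynurenine pathway, was at 0.59. CMKLR2, at -1.09, was the 1 named gene with the opposite sign.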

How the results depend on the processing

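None of the 128 named genes with a call changed sign under an alternative, but the line with more calls did change. Against 2611 toward 786-0 and 2445 toward A-498, DESeq2 gave 2255 and 2435, relative log expression scaling 2441 and 2655, and the model of all 24 libraries 2370 and 2815. Without A-498 Control-IFNg replicate 1 the counts were 2176 and 2682, without its replicate 3 they were 2200 and 2688, and without 786-0 Control-IFNg replicate 1 they were 2389 and 2680. With PD-L1 siRNA the counts of 2472 and 2282 became 2000 and 2335 with DESeq2 and 2235 and 2549 with relative log expression scaling. The median line difference over all genes was 0.03, and -0.0043 with DESeq2. By adjusted p alone, 4217 genes were more positive in 786-0 and 3908 in A-498. With a difference over 1 the counts were 1205 and 984. With protein-coding genes only, 1074 genes fell in 786-0. In the PD-L1 siRNA libraries the counts were 4235 and 3765 by adjusted p alone and 1046 and 975 with a difference over 1. The three-way counts were 46 (control siRNA) and 13 (PD-L1 siRNA) with a difference over 1, and 121 (PD-L1 siRNA) by adjusted p alone. Leaving out each library in turn gave 2176 to 2676 genes more positive in 786-0 and 2299 to 2688 in A-498. Within the lines it gave 3235 to 3552 risen and 3024 to 3502 fallen in A-498 and 1998 to 2135 risen and 1527 to 1810 fallen in 786-0, and with PD-L1 siRNA 2210 to 2557 and 2211 to 2356. The replicate numbers do not pair the libraries: same-numbered correlations ran from -0.187 to 0.131, 3 of 12 libraries correlated best with their own number, and a replicate block gave 2533 and 2382 against 2611 and 2445.

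Of 128 named genes called, 126 kept the call under every other test, scaling, filter or fit (CTSS and TNFSF15 did not), and 119 kept it under each of the 12 omissions. The 9 others were CTSK, CTSS, CXCL10, CXCL11, HLA-DQA1, IDO1, SP140, TNFSF15 and TRAF1. A difference over 1 ended 33 of the named calls. Of 897 recomputed list counts, 892 were within 1.5 times. Calls toward 786-0 were 51.6% of all calls, 47.9% with relative log expression scaling and 45.7% in the model of all 24 libraries. Genes at a few counts in an untreated group are limited by depth, and genes at 0 in all libraries of a line could not be compared.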

Other observations

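The gene lists not described above had no common direction. Their counts stand beside shares over all genes tested of 12.5% toward 786-0 and 11.7% toward A-498. EGFR, MET and AXL with their ligands gave 4 calls toward 786-0 and 7 toward A-498 in 13 tested members. Among them, AREG, a ligand of the EGF receptor, rose in A-498 from 2.05, 1.91 and 2.23 to 7.77, 7.61 and 5.98 CPM and fell in 786-0 from 1.67, 1.96 and 1.87 to 1.13, 1.05 and 1.19 CPM (line difference -2.49 ± 0.24). EGF itself fell in A-498 and rose in 786-0 (1.44 ± 0.24). HGF, the ligand of MET, was at 0 in untreated A-498 and rose at least 45.6-fold, against 12.1-fold in 786-0. Caspases, gasdermins and death receptors gave 4 calls in each direction in 17, with GSDMB at 1.78 ± 0.35. APOL, PARP and PML body genes gave 1 and 5 in 13, with APOL3 at -3.00 ± 0.22. Adhesion molecules gave 5 and 3 in 19, and ITGA6, an integrin of laminin, rose in both lines and more in A-498 (-1.94 ± 0.09). TGFβ and matrix genes gave 7 and 7 in 31.

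Oxidative stress and NRF2 targets gave 4 calls toward 786-0 and 6 toward A-498 in 22. TXNRD1, a thioredoxin reductase, rose in A-498 from 412, 404 and 380 to 953, 979 and 967 CPM and overlapped between the 786-0 groups at 1792 to 2016 CPM (-1.22 ± 0.07). Lysosomal proteases gave 2 and 2 in 13, cytosolic tRNA synthetases 3 and 1 in 8, and metallothioneins 0 and 1 in 3, with 0 toward 786-0 at an unadjusted p-value under 0.05 with edgeR and 0 called by DESeq2. Of 19 markers of other cell types, 8 were tested and 1 was called, ALB, which was at 0.309 CPM or less in all 12 libraries.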
